A study of Mus musculus with 12 samples.

Results

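The genes described here encode the machinery that builds peroxisomes and the enzymes that oxidise fatty acids inside them. They were taken as a named list of 43 genes among the 46983 genes of the count files: 13 peroxins, 14 enzymes of beta- and alpha-oxidation, 5 transporters and membrane proteins, and 11 other peroxisomal enzymes. All 43 were found in the files and passed the filter on low counts. RNA was measured by sequencing in primary mouse hepatocytes in 12 libraries. There were 4 groups of 3 libraries each: AEG-1-L24K/L25H hepatocytes given CP775146 for 24 h, AEG-1-L24K/L25H hepatocytes left untreated, AEG-1-WT hepatocytes given CP775146 for 24 h, and AEG-1-WT hepatocytes left untreated. CP775146 is an agonist of the nuclear receptor PPAR-alpha. AEG-1, also called metadherin, is the product of the gene Mtdh, and AEG-1-L24K/L25H is a knock-in made with CRISPR/Cas9 that replaces 2 leucines of the protein. Knock-in and wild type were littermates on the C57BL/6/J background, so the groups differ by genotype and agonist only as far as the labels say. What the untreated cells received in place of the agonist, how many animals gave cells, whether replicates came from separate animals, and how many knock-in lines were used are not given in the sources used here. The p-values below therefore measure the spread between libraries, part of which may be technical. The dose is not given here, because its unit cannot be read in the labels.

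Peroxisomes shorten very long-chain and branched fatty acids by beta-oxidation, and the oxidases of this pathway release hydrogen peroxide, which catalase removes. Peroxins, the products of the Pex genes, insert membrane proteins into the organelle, import its enzymes from the cytosol and control its division. PPAR-alpha is the receptor through which fibrate drugs enlarge the peroxisome pool and raise peroxisomal enzymes in rodent liver. It binds DNA together with the retinoid X receptor at direct repeats of the half-site AGGTCA with 1 free base between them. The replaced leucines of AEG-1 belong to a motif by which it is known to bind the retinoid X receptor. The study asked how this knock-in affects the response to a PPAR-alpha agonist.

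The promoters of the 43 genes were searched for this repeat because so many of them moved together. RefSeq sequences (GRCm38.p6) from 250 bases before to 50 bases after the start were at hand for 35 members. No member held the repeat without a mismatch or with 1 mismatch over its 12 fixed bases, on either strand. With up to 2 mismatches, 2 of 35 members held it, Cat and Acox2, against 4.40% of all 27025 genes with a promoter in the table. The matching stretches of both genes are shown in the orientation of the repeat, with capitals at the bases that equal AGGTCA and lower case at the free base and the mismatches.
Cat, chr2:103485104-103485403, minus strand: AGGTCAgAGaaCA
Acox2, chr14:8258790-8259089, minus strand: AGGaCAgAGGTgA
Neither of these genes was among those that rose most. Of the 16 members that rose at least 2-fold with CP775146 in either genotype, 12 had a promoter in the table and none of those 12 held the repeat with up to 2 mismatches. The nearest stretches were 3 mismatches away, in Mlycd and Pxmp4. The promoters of the oxidation enzyme and the peroxin that rose most, Ehhadh and Pex11a, are printed with the closest 13-base stretch in capitals, which differs from the repeat at 4 and 5 of the 12 fixed bases.
Ehhadh, chr16:21787785-21788084, minus strand: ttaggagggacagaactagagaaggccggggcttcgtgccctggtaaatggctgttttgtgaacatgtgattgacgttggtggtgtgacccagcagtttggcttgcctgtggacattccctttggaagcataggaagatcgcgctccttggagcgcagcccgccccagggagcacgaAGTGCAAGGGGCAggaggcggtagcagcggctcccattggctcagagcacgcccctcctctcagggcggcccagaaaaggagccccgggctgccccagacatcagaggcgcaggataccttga
Pex11a, chr7:79743082-79743381, minus strand: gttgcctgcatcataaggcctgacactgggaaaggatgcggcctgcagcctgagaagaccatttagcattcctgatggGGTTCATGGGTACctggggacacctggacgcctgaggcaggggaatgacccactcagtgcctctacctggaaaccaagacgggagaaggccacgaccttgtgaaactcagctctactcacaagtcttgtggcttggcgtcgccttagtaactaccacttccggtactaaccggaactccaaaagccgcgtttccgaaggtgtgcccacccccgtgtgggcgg
A search of a 300-base window says only which letters are in it, and nothing was read from a missing match about binding of the receptor.

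Library totals lay between 26956032 and 34885451 counts. At that depth a count of 3 equals 0.086 to 0.111 CPM (counts relative to the library size) before scaling. All other CPM here are scaled with TMM factors. Every member lay above that level, the nearest being Eci3 at 0.440 CPM in untreated wild-type replicate 1. The coefficient of biological variation was 2.63% in treated knock-in, 2.59% in untreated knock-in, 5.33% in treated wild type and 5.10% in untreated wild type. The TMM factors were 1.02 in treated knock-in, 1.06 to 1.07 in untreated knock-in, 0.917 to 0.936 in treated wild type and 0.988 to 0.998 in untreated wild type, so that with total counts alone as the scaling every level in the knock-in is higher relative to wild type. With that scaling the order of knock-in against wild-type libraries changed for 17 of the 43 members under the agonist and for 12 without it, and values whose call changes are given below. The knock-in changes codons and leaves the gene in place, so the level of Mtdh does not check the genotype labels. Mtdh measured 192 ± 3.72 CPM in treated knock-in, 173 ± 1.98 in untreated knock-in, 181 ± 4.32 in treated wild type and 166 ± 8.47 in untreated wild type (mean ± SD, n = 3 each). All 10 hepatocyte markers were detected, and their summed level was 81720.2 to 84281 CPM in treated knock-in, 90606 to 95202 in untreated knock-in, 125809 to 132010.2 in treated wild type and 127090.0 to 129609.7 in untreated wild type. Summed macrophage markers (8 genes) were at 107 to 122, 153 to 163, 185 to 190.3 and 213 to 253 CPM in the same 4 groups. Stellate cell markers (8 genes) were at 67.9 to 78.5, 109 to 122, 160.3 to 198 and 188 to 220.3 CPM, and endothelial markers (8 genes) at 37.6 to 43.1, 49.8 to 55.6, 69.5 to 71.3 and 79.3 to 91.0 CPM. Cholangiocyte markers (7 genes) went the other way between genotypes, at 65.8 to 70.5, 64.0 to 67.1, 48.4 to 49.5 and 34.1 to 38.2 CPM, with Cftr at 0 in both knock-in groups. The 8 lymphocyte and neutrophil markers summed to at most 0.31 CPM in any library. The summed hepatocyte, macrophage, stellate and endothelial markers were thus lower in knock-in than in wild-type libraries, but 1 gene leads each sum: Alb with 75.1 to 84.4%, Cd68 with 95.5 to 98.3%, Reln with 91.7 to 96% and Stab2 with 56.8 to 77.5% of it. Gene by gene, knock-in against wild type, 1 hepatocyte marker was higher and 5 lower of 10 untreated, and 2 higher and 6 lower treated. Of 7 macrophage markers tested, 2 were higher and 1 lower at each condition, with medians of log2 0.38 treated and 0.21 untreated, the lower one being Cd68. Of 7 tested for each, 3 stellate and 2 endothelial markers were lower and none higher at each condition. The part of these differences in the results below was not tested. In bulk RNA, fewer cells of a type and less RNA per cell cannot be told apart.

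Per kilobase of exon, the leading gene of the untreated cells was Cat, which encodes catalase, the enzyme that breaks down hydrogen peroxide. Its level was 469 ± 10.1 RPKM in untreated knock-in and 474 ± 5.12 RPKM in untreated wild type (mean ± SD, n = 3 each; RPKM, CPM per kilobase of exon). The next levels were far lower, at 91.6 ± 1.87 RPKM for Hsd17b4 in untreated knock-in and 80.8 ± 1.78 RPKM for Scp2 in untreated wild type. With the agonist, Ehhadh took the lead at 1709 ± 29.9 RPKM in treated knock-in and 1291 ± 31.0 RPKM in treated wild type. It had ranked 16 and 20 of 43 in untreated knock-in and untreated wild type. Catalase stood next to it in treated cells, at 547 ± 8.37 and 601 ± 15.3 RPKM in knock-in and wild type. Far1 was the lowest member in every group, and Eci3, Abcd2 and Pex10 were also under 3 RPKM throughout.

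**Figure D1:**
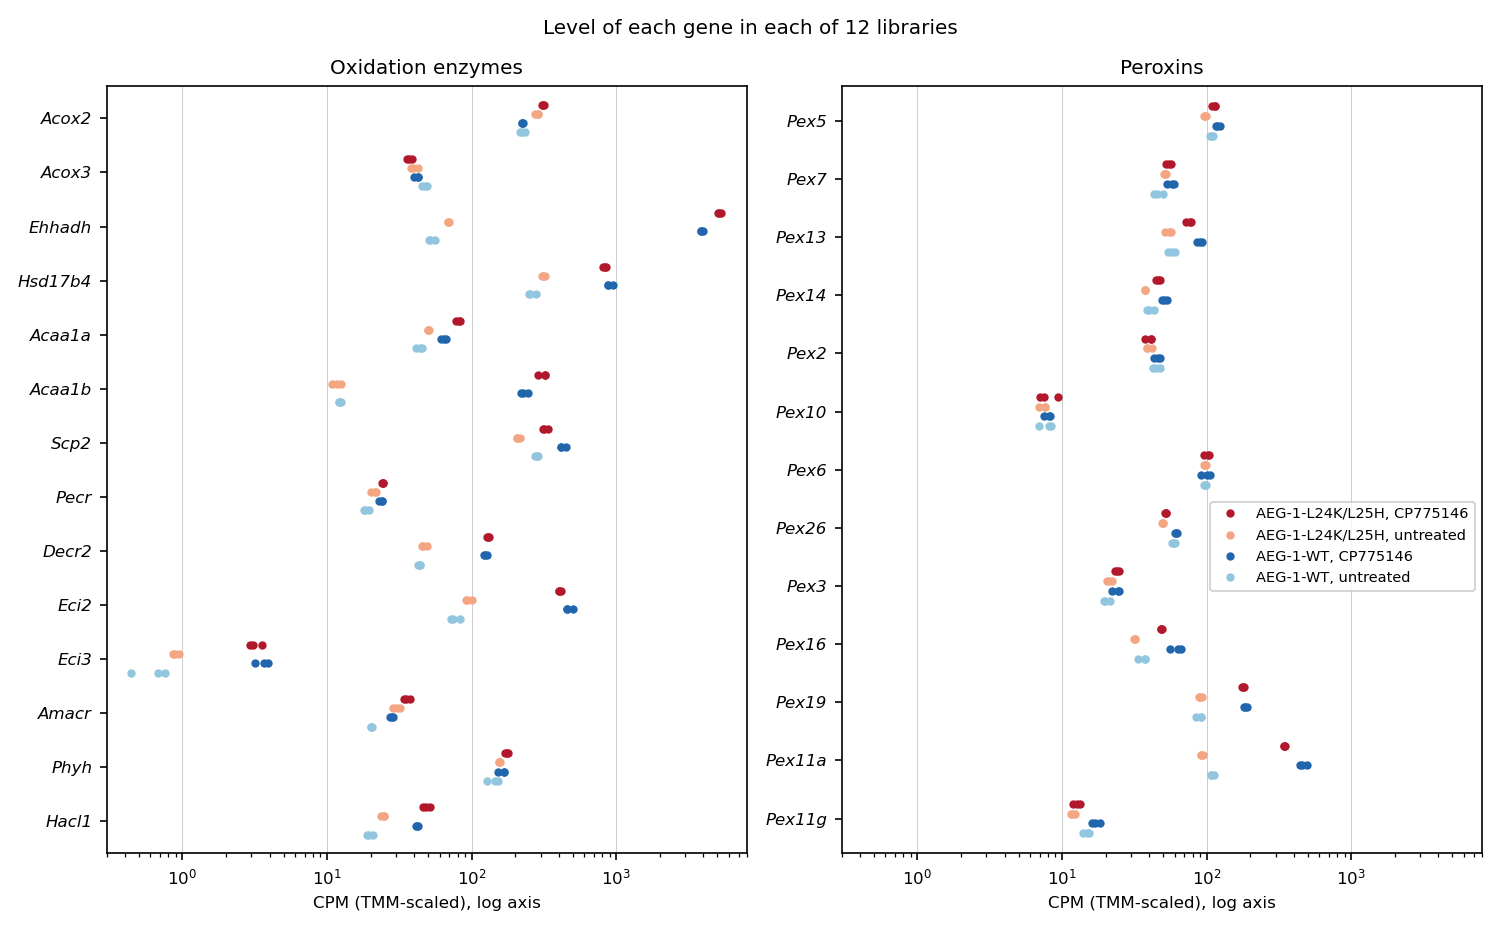
Level of each of the 14 oxidation enzymes (left) and 13 peroxins (right) in CPM on a log axis, with 1 point per library and 1 colour per group of 3 libraries. Ehhadh lies between 3819 and 5255 CPM in the 6 treated libraries and under 70 CPM in the 6 untreated ones, while treated and untreated libraries overlap for Pex2, Pex10 and Pex6 in both genotypes.

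CP775146 raised most of the 43 genes in both genotypes, with a median log2 fold change of 0.84 among the oxidation enzymes in each and of 0.18 and 0.22 among the peroxins in knock-in and wild type. In the knock-in, 33 members rose, 1 fell and 9 did not pass the test (edgeR quasi-likelihood test, adjusted p below 0.05 over all genes), where 18.1% of the 15664 genes tested rose and 19.1% fell. In wild type, 34 members rose, 2 fell and 7 did not pass, where 22.7% of the genes tested rose and 22.3% fell. The median log2 fold change of the members was 0.44 in the knock-in and 0.51 in wild type, against -0.01 over all genes tested in each genotype. A rise of 2-fold or more was called for 14 members in the knock-in, where 2.62% of all genes reached it, and for 16 in wild type, where 3.89% did. The 31 members that rose in both genotypes are the same genes by count of shared calls, and 42 of 43 estimates had the same sign in both. Across the 43 genes the fold changes of the 2 genotypes, which share no library, had a Pearson r of 0.98 and a Spearman rho of 0.97, against 0.80 and 0.69 over all genes tested. Genes are not independent replicates, and these correlations are given as a description only.

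**Figure D2:**
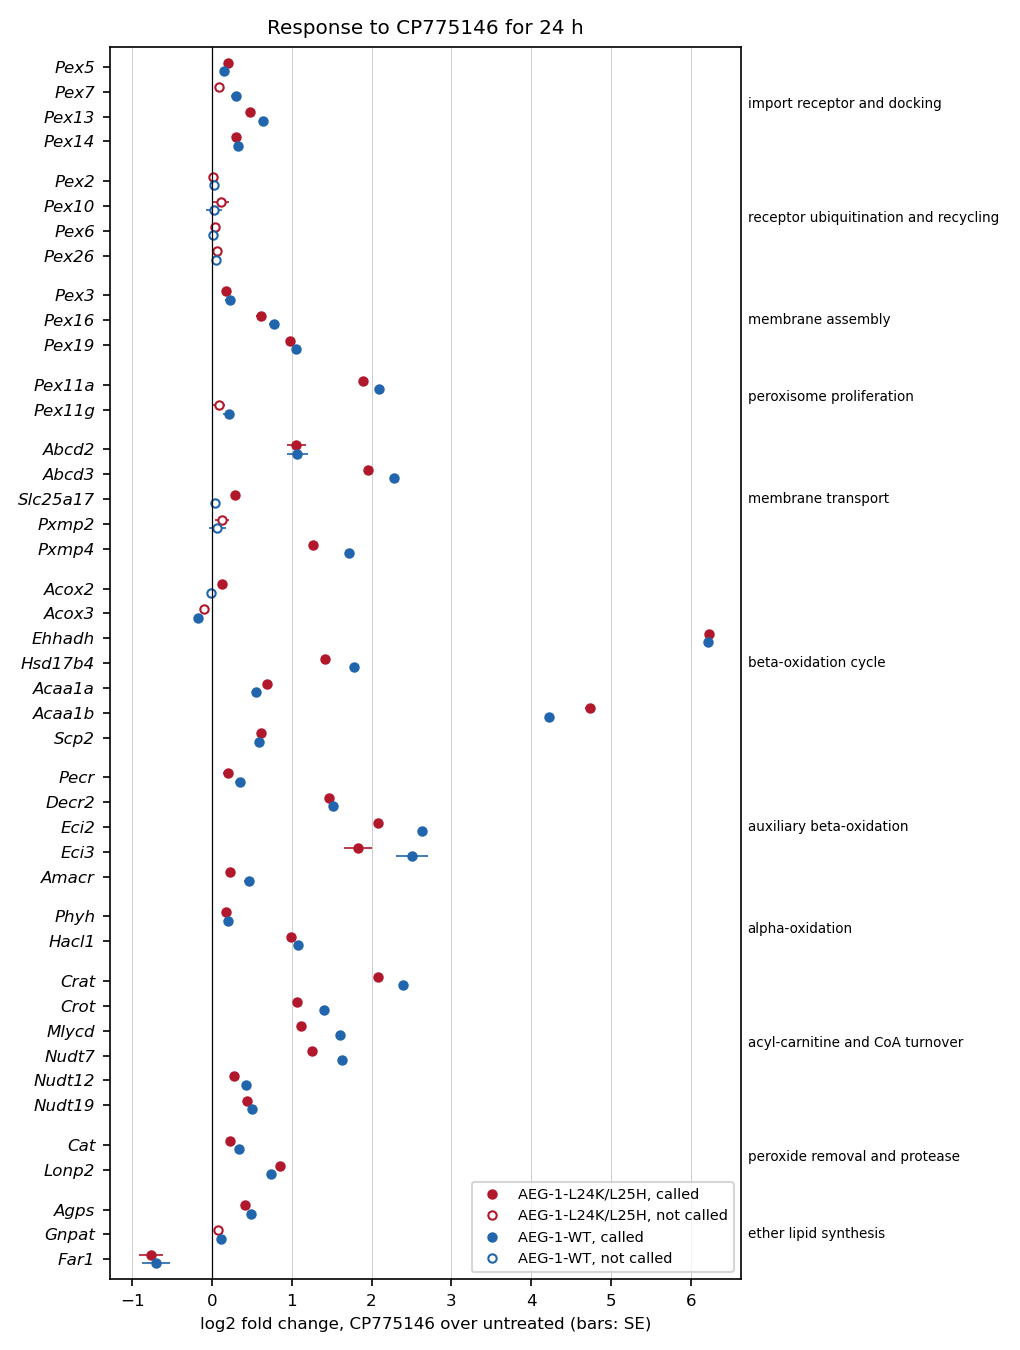
log2 fold change of each of the 43 genes with CP775146 over untreated cells, with its SE, in AEG-1-L24K/L25H (red) and AEG-1-WT (blue), grouped by role; filled points passed the test. Ehhadh and Acaa1b stand beyond a log2 fold change of 4 in both genotypes, and none of the 4 genes of receptor ubiquitination and recycling passed in either.

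Among the peroxins, Pex11a and the 3 genes of membrane assembly rose in both genotypes, as did the import genes Pex13, Pex14 and Pex5, while those of receptor recycling did not pass. Of 13 peroxins, 7 rose and none fell in the knock-in, and 9 rose and none fell in wild type, with median log2 fold changes of 0.18 and 0.22. Pex11a, whose product elongates the peroxisome membrane before division, rose most (chr7:79735957-79743131 (minus strand), mm10). It measured 341, 342 and 349.7 CPM in treated knock-in libraries and 91.7, 93.8 and 91.4 CPM in untreated ones. In wild type it measured 444, 452 and 492 CPM in treated and 106, 112 and 107 CPM in untreated libraries. Treated and untreated libraries do not overlap in either genotype, and at each condition all 3 knock-in libraries lie under all 3 wild-type ones. The rise was 3.73-fold in the knock-in (log2 1.9 ± 0.04, edgeR adjusted p = 1.63e-25) and 4.26-fold in wild type (log2 2.09 ± 0.04, adjusted p = 1.19e-26). Without Pex11a, the median of the other 12 peroxins was 0.15 in the knock-in and 0.21 in wild type.

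Its paralog Pex11g, of the same family, was at a much lower level. It measured 11.8, 12.7 and 13.3 CPM in treated and 12.3, 11.5 and 11.8 CPM in untreated knock-in libraries, which overlap. In wild type it measured 16.9, 16.0 and 18.1 CPM in treated and 14.8, 14 and 15.3 CPM in untreated libraries, which do not. The log2 fold change was 0.09 ± 0.07 in the knock-in (adjusted p = 0.365) and 0.21 ± 0.07 in wild type (adjusted p = 0.0147), a call lost without untreated wild-type replicate 2 (0.18) or treated wild-type replicate 3 (0.16) and with total counts alone as the scaling (0.11). Of the 50-base stretches of its transcripts, 39.2% also occur on either strand in another gene of GENCODE M21, all in Gm44775. In the annotation used for counting no other gene overlaps its exons, so how far its counts are affected is not known.

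Pex19, the cytosolic carrier that brings membrane proteins to the organelle, was the next strongest. It measured 178, 180.2 and 175 CPM in treated and 88.3, 89.9 and 92.1 CPM in untreated knock-in libraries, against 185, 179.7 and 188 CPM in treated and 84.6, 91.4 and 91.5 CPM in untreated wild-type libraries. Treated and untreated libraries are far apart, and the genotypes overlap at both conditions, although with total counts alone the knock-in libraries lie above. The log2 fold change was 0.98 ± 0.04 in the knock-in (adjusted p = 1.02e-18) and 1.05 ± 0.04 in wild type (adjusted p = 1.98e-19). Its partners in membrane assembly had smaller fold changes. Pex16, a receptor for this process, had log2 fold changes of 0.61 and 0.78 in knock-in and wild type, and Pex3, the docking factor for Pex19, 0.18 and 0.22. The rise of Pex3 in the knock-in was lost when untreated knock-in replicate 1 or 2 or treated knock-in replicate 2 was left out (0.17, 0.15 and 0.16), and with total counts alone in both genotypes (0.12 in each).

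Among the import genes, Pex13, part of the docking complex, had the highest fold change in both genotypes, with 71.6, 78.3 and 77.1 CPM in treated and 54.5, 56.5 and 51.7 CPM in untreated knock-in libraries. In wild type it had 85.2, 90.3 and 92.4 CPM in treated and 57.6, 54.0 and 60.2 CPM in untreated libraries. The ranges are separate in both genotypes, and the log2 fold change was 0.48 ± 0.05 in the knock-in (adjusted p = 2.23e-09) and 0.64 ± 0.05 in wild type (adjusted p = 4.34e-12). Its partner Pex14 rose by log2 0.31 in the knock-in and 0.33 in wild type. The annotation places Gm17029 on the opposite strand over 28.3% of the exonic bases of Pex14, and counting without strand cannot tell them apart. Of the receptors, Pex5, which carries most matrix enzymes, rose by log2 0.20 in the knock-in and 0.14 in wild type, where it was 0.05 with total counts alone and did not pass. Pex7, the receptor for a smaller group of enzymes, rose in wild type (log2 0.30 ± 0.05) and did not pass in the knock-in (0.08 ± 0.05, adjusted p = 0.2). The difference between these responses did not pass (-0.21, edgeR adjusted p = 0.0743), though it did with all genes kept (-0.22). With only the groups compared in the fit, the rise in the knock-in passed as well (0.09).

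The 4 genes that take the import receptor back out of the membrane did not pass the test in either genotype. Pex10, a ubiquitin ligase of this step, had the largest estimate of the 4 in the knock-in, with 7.52, 9.38 and 7.04 CPM in treated and 7.57, 6.90 and 7.56 CPM in untreated knock-in libraries. In wild type it had 8.15, 7.49 and 8.26 CPM in treated and 6.92, 8.15 and 8.38 CPM in untreated libraries, so all groups overlap. Its log2 fold change was 0.12 ± 0.10 in the knock-in and 0.03 ± 0.10 in wild type. The ligase Pex2, the ATPase Pex6 and its membrane anchor Pex26 had log2 fold changes between 0.01 and 0.07 with SEs of 0.04 to 0.05 in both genotypes. Under total counts alone the estimates of Pex2 and Pex6 in the knock-in and of all 4 genes in wild type lay below 0, and none was called. A miss of the threshold does not show that these genes did not move.

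Among the 14 oxidation enzymes, 13 rose and none fell in the knock-in, and 12 rose and 1 fell in wild type. The median log2 fold change was 0.84 in each genotype. Of these enzymes, 6 in the knock-in and 7 in wild type rose at least 2-fold, against 1 and 2 of the 13 peroxins. Ehhadh, the bifunctional enzyme that hydrates and dehydrogenates straight-chain acyl-CoA, led all members (chr16:21761287-21787844 (minus strand), mm10). It measured 5078, 5138 and 5255 CPM in treated and 69.3, 68.9 and 68.0 CPM in untreated knock-in libraries. Wild-type libraries had 3819, 3873 and 4001 CPM in treated and 55.6, 51.1 and 50.9 CPM in untreated libraries. Each knock-in library lies above each wild-type one, with and without the agonist. The rise was 75.0-fold in the knock-in (log2 6.23 ± 0.05, adjusted p = 4.73e-37) and 74.2-fold in wild type (log2 6.21 ± 0.05, adjusted p = 7.03e-37).

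Ehhadh came to dominate the summed message of the oxidation enzymes. It made up 64.0 to 64.8% of their summed RPKM in treated knock-in libraries and 5.13 to 5.17% in untreated ones. In wild type the shares were 57.5 to 58.3% in treated and 4.01 to 4.61% in untreated libraries. The summed level of the 14 enzymes was 2654 ± 46.7 RPKM in treated and 442 ± 2.92 RPKM in untreated knock-in, and 2230.0 ± 67.8 RPKM in treated and 402 ± 16.6 RPKM in untreated wild type (mean ± SD, n = 3). Without Ehhadh these sums were 945 ± 21.2, 419 ± 2.71, 938 ± 37.5 and 385 ± 16.8 RPKM in the same groups. The 13 peroxins summed to 322 ± 3.13 RPKM in treated and 197 ± 0.973 RPKM in untreated knock-in, and to 379 ± 15.0 RPKM in treated and 210.2 ± 2.93 RPKM in untreated wild type. At each condition the enzyme sum with Ehhadh was therefore higher, and the peroxin sum lower, in the knock-in libraries than in the wild-type ones. With total counts alone the enzyme sum kept this order, and the peroxin sum was 328 ± 3.23 RPKM in treated knock-in, 209.7 ± 0.889 in untreated knock-in, 351.7 ± 10.6 in treated wild type and 208.8 ± 3.47 in untreated wild type, so that the untreated libraries overlap.

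**Figure D3:**
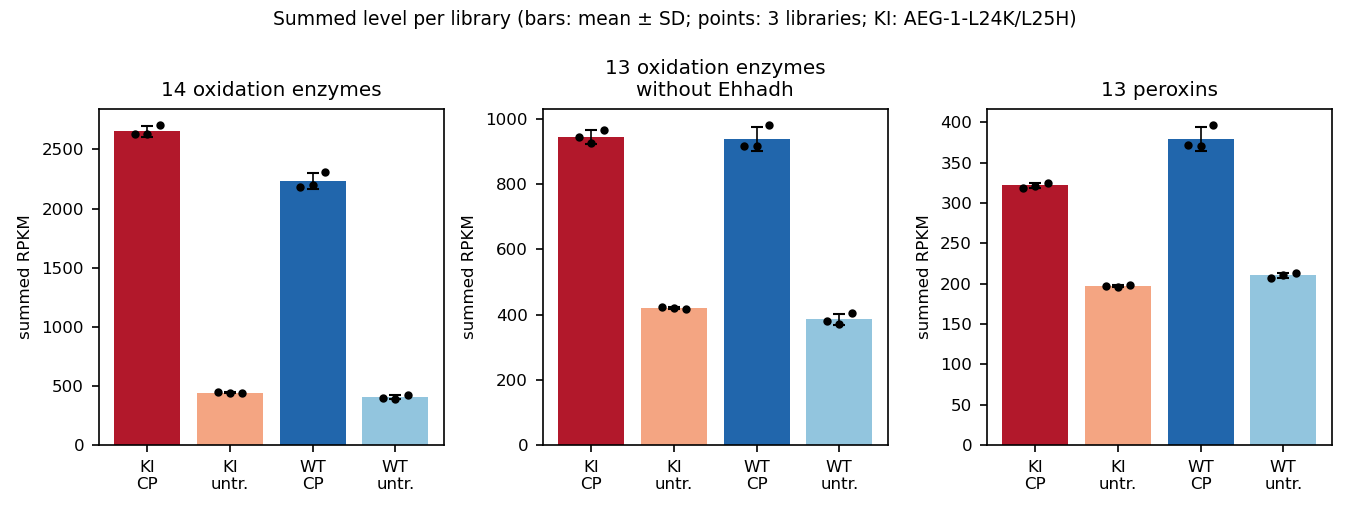
Summed RPKM of the 14 oxidation enzymes, of the 13 left without Ehhadh, and of the 13 peroxins, by group (bars, mean ± SD; points, 3 libraries; KI, AEG-1-L24K/L25H; each panel has its own axis from 0). Without Ehhadh, the treated libraries of both genotypes overlap with TMM scaling, at 924 to 967 RPKM in the knock-in and 916 to 982 RPKM in wild type; with total counts alone these ranges are 944 to 985 and 852 to 899.7 RPKM.

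The thiolases, which close each turn of the beta-oxidation cycle, differed within their own pair. Acaa1b (chr9:119148023-119157093 (minus strand), mm10) measured 321, 286 and 321 CPM in treated and 10.8, 12.4 and 11.7 CPM in untreated knock-in libraries. In AEG-1-WT cells it measured 226, 218 and 243 CPM in treated and 12.1, 12 and 12.5 CPM in untreated libraries. The genotypes overlap without the agonist and separate with it. The rise was 26.6-fold in the knock-in (adjusted p = 8.42e-30) and 18.8-fold in wild type (adjusted p = 1.52e-28). Its paralog Acaa1a, on the same chromosome at chr9:119339676-119350299 (plus strand), measured 81.8, 78.2 and 83.1 CPM in treated and 50.2, 49.7 and 50.5 CPM in untreated knock-in libraries, and 66.5, 61.5 and 64.0 CPM in treated and 41.5, 44.2 and 45.6 CPM in untreated wild-type libraries. It rose 1.62-fold in the knock-in and 1.46-fold in wild type. The pair shares sequence: 30.5% of the 50-base stretches of Acaa1b also occur in Acaa1a, so reads may be lost or split between them, and the values of both are uncertain to that extent. Scp2, which encodes a sterol carrier protein and a thiolase for branched chains, rose by log2 0.61 in the knock-in and 0.59 in wild type; 29.7% of its 50-base stretches occur elsewhere, mostly in a pseudogene.

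Hsd17b4, the second bifunctional enzyme, which handles branched chains and bile acid precursors, measured 840.1, 809 and 852 CPM in treated and 309, 308 and 319 CPM in untreated knock-in libraries. The wild-type values were 877, 870.0 and 940.3 CPM in treated and 254, 247 and 279 CPM in untreated libraries. Without the agonist every knock-in library lies above every wild-type one, and with it every knock-in library lies below, an order that with total counts alone becomes an overlap. It rose 2.67-fold in the knock-in (adjusted p = 6.60e-22) and 3.45-fold in wild type (adjusted p = 2.30e-24).

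The branched-chain acyl-CoA oxidases stood apart from the rest of the cycle. Acox3 was the only oxidation enzyme that fell, and only in wild type, where it measured 42.8, 40.0 and 42.6 CPM in treated and 47.4, 48.8 and 45.4 CPM in untreated libraries (log2 -0.17 ± 0.05, adjusted p = 0.00655). In the knock-in it measured 37.0, 38.9 and 35.8 CPM in treated and 39.3, 42.7 and 37.9 CPM in untreated libraries, which overlap (log2 -0.10 ± 0.05, adjusted p = 0.121). The difference between these responses did not pass (0.07 ± 0.07, adjusted p = 0.643), and with total counts alone or in limma the fall in the knock-in passed as well (-0.17 and -0.12). Acox2, the oxidase of bile acid precursors, rose by log2 0.13 in the knock-in and had -0.01 in wild type; with total counts alone these values were 0.07, which did not pass, and -0.11, a fall.

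The auxiliary enzymes, which prepare unsaturated and branched acyl-CoA for the cycle, all rose in both genotypes. Eci2, an isomerase that moves double bonds, measured 401, 399.6 and 414 CPM in treated and 101, 93.3 and 91.8 CPM in untreated knock-in libraries. Wild type gave 457, 458 and 504 CPM in treated and 74.1, 71.6 and 82.3 CPM in untreated libraries. As with Hsd17b4, the knock-in libraries lie above the wild-type ones without the agonist and below them with it. The rise was 4.25-fold in the knock-in (adjusted p = 8.30e-23) and 6.22-fold in wild type (adjusted p = 5.95e-25). Its paralog Eci3 was near the lower limit, with 2.92, 3.56 and 3.10 CPM in treated and 0.946, 0.855 and 0.881 CPM in untreated knock-in libraries, and 3.15, 3.64 and 3.90 CPM in treated and 0.440, 0.676 and 0.752 CPM in untreated wild-type libraries. It rose by log2 1.83 ± 0.17 in the knock-in and 2.51 ± 0.20 in wild type, and 8.70% of its 50-base stretches also occur in Eci2. The dienoyl-CoA reductase Decr2 rose by log2 1.47 and 1.52 in knock-in and wild type, the racemase Amacr by 0.23 and 0.46, and the enoyl-CoA reductase Pecr by 0.20 and 0.35. The rise of Pecr in the knock-in was 0.13 with total counts alone and did not pass.

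Alpha-oxidation removes a single carbon from branched chains such as phytanic acid. Hacl1, the lyase that cleaves the chain, measured 45.9, 48.1 and 51.6 CPM in treated and 24.9, 24.6 and 23.7 CPM in untreated knock-in libraries, and 41.9, 42.6 and 40.9 CPM in treated and 18.9, 19.4 and 20.9 CPM in untreated wild-type libraries. All treated libraries lie above all untreated ones (log2 0.996 ± 0.05 in the knock-in, adjusted p = 7.55e-16; 1.08 ± 0.06 in wild type, adjusted p = 4.41e-16). Of the 50-base stretches of Hacl1, 30.1% also occur on either strand in another gene of GENCODE M21, mostly in Gm49387. In the annotation used for counting, Gm49387 does not overlap its exons, and other genes overlap 5.99% of its exonic bases. How far its counts are affected is therefore not known. Phyh, the hydroxylase before it, rose by only log2 0.17 in the knock-in and 0.20 in wild type, and neither rise passed with total counts alone (0.11 and 0.10).

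Of the 5 transporters and membrane proteins, 4 rose in the knock-in and 3 in wild type, and none fell. Abcd3, which brings long-chain acyl-CoA into the organelle, measured 1071, 1044 and 1083 CPM in treated and 272, 268 and 284 CPM in untreated knock-in libraries. Wild-type libraries had 1033, 1085 and 1131 CPM in treated and 224, 212 and 232 CPM in untreated libraries. The treated libraries of both genotypes overlap (with total counts alone the knock-in ones lie above), while the untreated knock-in libraries lie above the wild-type ones. The rise was 3.88-fold in the knock-in (adjusted p = 1.08e-25) and 4.86-fold in wild type (adjusted p = 2.81e-27). Abcd2, a transporter of very long chains, was at 9.50 ± 0.644 CPM in treated and 4.56 ± 0.150 CPM in untreated knock-in, and at 7.11 ± 0.541 CPM in treated and 3.38 ± 0.984 CPM in untreated wild type (SD, n = 3), with log2 fold changes of 1.06 and 1.07.

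The smaller membrane proteins did not move as a group. Pxmp4 measured 139, 130.1 and 134 CPM in treated and 56.0, 54.3 and 57.1 CPM in untreated knock-in libraries, and 146, 145 and 157 CPM in treated and 42.9, 47.4 and 46.2 CPM in untreated wild-type libraries (log2 1.27 ± 0.04 and 1.72 ± 0.05). Slc25a17, which carries CoA and other nucleotide cofactors across the membrane, measured 87.6, 88.7 and 88.4 CPM in treated and 74.6, 71.3 and 70.6 CPM in untreated knock-in libraries. In AEG-1-WT cells it measured 60.2, 62.4 and 61.0 CPM in treated and 60.3, 58.3 and 60.6 CPM in untreated libraries, which overlap. It rose in the knock-in (log2 0.29 ± 0.04, adjusted p = 5.98e-07) and did not pass in wild type (0.03 ± 0.04, adjusted p = 0.534), where it was -0.06 with total counts alone. Pxmp2, a channel for small solutes, did not pass in either genotype (0.13 ± 0.08 in the knock-in and 0.07 ± 0.10 in wild type).

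The enzymes of acyl-carnitine and CoA turnover, which export shortened chains and recycle CoA, all 6 rose in both genotypes, with medians of log2 1.09 in the knock-in and 1.5 in wild type. Crat, the carnitine acetyltransferase, measured 182, 182 and 183 CPM in treated and 43.8, 41.3 and 44.6 CPM in untreated knock-in libraries. The wild-type values were 209, 211 and 223 CPM in treated and 40.8, 42.7 and 39.3 CPM in untreated libraries. All treated knock-in libraries lie below all treated wild-type ones, and the untreated libraries overlap, or lie above in the knock-in with total counts alone. The rise was 4.22-fold in the knock-in (adjusted p = 6.61e-26) and 5.24-fold in wild type (adjusted p = 2.62e-27). Crot, the carnitine octanoyltransferase, measured 531, 496 and 540.1 CPM in treated and 246, 246 and 254 CPM in untreated knock-in libraries, and 466, 479 and 452 CPM in treated and 178, 159.9 and 189 CPM in untreated wild-type libraries. Here the knock-in libraries lie above the wild-type ones at both conditions.

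Mlycd, which decarboxylates malonyl-CoA, measured 107, 107 and 110.4 CPM in treated and 49.0, 50.3 and 49.9 CPM in untreated knock-in libraries, and 133, 130.3 and 143 CPM in treated and 44.0, 43.2 and 46.5 CPM in untreated wild-type libraries. Nudt7, a hydrolase of CoA and its esters, measured 84.3, 81.5 and 84.4 CPM in treated and 33.9, 36.0 and 34.7 CPM in untreated knock-in libraries, and 86.3, 86.3 and 85.7 CPM in treated and 29.3, 25.6 and 28.5 CPM in untreated wild-type libraries. For both genes the treated knock-in libraries lie below the treated wild-type ones and the untreated knock-in libraries above the untreated wild-type ones; with total counts alone Mlycd kept both orders and the treated knock-in libraries of Nudt7 lay above. Nudt12, which hydrolyses NADH and NAD, rose by log2 0.28 in the knock-in and 0.43 in wild type, and Nudt19, another CoA hydrolase, by 0.44 and 0.51, with an antisense gene over 35.0% of the exonic bases of Nudt19.

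Lonp2, the protease of the peroxisome matrix, measured 287, 285 and 298 CPM in treated and 163, 162 and 157 CPM in untreated knock-in libraries, and 233, 230.0 and 230.2 CPM in treated and 137, 139 and 140.1 CPM in untreated wild-type libraries. Its groups do not overlap (log2 0.85 ± 0.04 in the knock-in and 0.74 ± 0.04 in wild type). Catalase rose by log2 0.22 in the knock-in and 0.34 in wild type, far less than Ehhadh. In ether lipid synthesis, Agps rose by log2 0.41 in the knock-in and 0.49 in wild type, while its partner Gnpat had 0.08, which did not pass, and 0.11, a rise lost without treated wild-type replicate 2 (0.09) or replicate 3 (0.10) and with total counts alone (0.01).

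Far1, the reductase that supplies fatty alcohol for ether lipids, was the sole member that fell in both genotypes. It measured 2.32, 2.33 and 2.34 CPM in treated and 3.60, 4.18 and 4.12 CPM in untreated knock-in libraries. Wild type gave 1.84, 2.31 and 1.45 CPM in treated and 3.70, 3.12 and 2.36 CPM in untreated libraries. The ranges are separate in the knock-in and nearly touch in wild type, at 2.32 CPM in the highest treated and 2.36 CPM in the lowest untreated library. The log2 fold change was -0.77 ± 0.15 in the knock-in (adjusted p = 0.000149) and -0.70 ± 0.17 in wild type (adjusted p = 0.00138).

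Without the agonist, the knock-in had higher levels of most oxidation enzymes and transporters and lower levels of several peroxins than wild type. Of the 43 members, 23 were higher, 9 lower and 11 not called, where 18.4% of all genes tested were higher and 18.6% lower. The median log2 difference of the members was 0.16. By class, 10 of 14 oxidation enzymes and all 5 transporters and membrane proteins were higher, and 2 oxidation enzymes were lower. Among the 13 peroxins, 1 was higher and 6 were lower. No member differed 2-fold between genotypes. With total counts alone, a scaling that puts the median of all genes at 0.10 in this comparison, 3 peroxins were higher and 3 lower, while 11 oxidation enzymes were higher and 2 lower. The balance among the peroxins therefore depends on the scaling.

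The largest difference was in Pxmp2, at 9.46, 8.80 and 9.32 CPM in untreated knock-in and 4.36, 5.37 and 5.51 CPM in untreated wild type. The ranges are far apart (log2 0.85 ± 0.10, adjusted p = 1.81e-08), although Gm15788 lies on the opposite strand over 10.8% of its exonic bases. Among the enzymes called higher, Amacr had the largest difference from wild type (log2 0.58 ± 0.06), followed by Crot (0.50 ± 0.05), Ehhadh (0.39 ± 0.04), Far1 (0.38 ± 0.15), Nudt19 (0.37 ± 0.05), Acox2 (0.34 ± 0.04), Eci2 (0.33 ± 0.05) and Nudt7 (0.33 ± 0.05). Scp2 went the other way, at 217, 206 and 207 CPM in untreated knock-in and 284, 274 and 285 CPM in untreated wild type (log2 -0.42 ± 0.04, adjusted p = 1.14e-09). The peroxins Pex11g (-0.31 ± 0.07), Pex26 (-0.25 ± 0.04) and Pex11a (-0.23 ± 0.04) were lower, also with total counts alone. Pex16 (-0.18), Pex2 (-0.18) and Pex5 (-0.15) were lower with TMM scaling but did not pass with total counts alone (-0.08, -0.08 and -0.04), nor did the lower call of Gnpat (-0.02). Under that scaling Eci3 (0.62), Crat (0.18), Pex3 (0.17), Pex19 (0.12) and Cat (0.09) passed as higher, none of which was called with TMM scaling.

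Several of these small differences hang on a single library. Without untreated wild-type replicate 2, the higher calls of Pex7 (0.13), Phyh (0.07), Pecr (0.16) and Abcd2 (0.27, against 0.43 with all libraries) and the lower call of Pex16 (-0.16) were lost. Without untreated wild-type replicate 1, the lower calls of Pex16 (-0.14) and Gnpat (-0.11) were lost and Abcd2 came to 0.69. Without untreated wild-type replicate 3, Abcd2 (0.37) and Pex2 (-0.14) missed the threshold. Leaving out untreated knock-in replicate 1 ended the call of Pex16 (-0.17), leaving out replicate 2 those of Phyh (0.14), Pecr (0.16), Pex2 (-0.15) and Gnpat (-0.09), and leaving out replicate 3 those of Phyh (0.14) and Pex2 (-0.16). The higher call of Far1 (0.38) was lost in 8 of the 12 fits that left out 1 library, going to 0.22 without untreated wild-type replicate 3, and that of Decr2 (0.11) in 5 of 12, going to 0.08 without untreated knock-in replicate 2. The marker genes that differed between the untreated groups are given above, and their part in these differences was not tested.

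Under CP775146, the balance of the members turned toward lower levels in the knock-in. Of the 43 members, 13 were higher, 17 lower and 13 not called, where 20.5% of all genes tested were higher and 22.0% lower, and the median log2 difference was -0.05. Among the peroxins, none was higher and 7 of 13 were lower. Among the oxidation enzymes, 6 of 14 were higher and 4 lower. With total counts alone, which puts the median of all genes at 0.12 here, 2 peroxins were higher and 3 lower, 9 oxidation enzymes were higher and 1 lower, and over all members 20 were higher and 6 lower. The direction of the balance therefore differs between the scalings.

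The peroxins lower under both scalings were Pex11g (-0.43 ± 0.07), Pex11a (-0.43 ± 0.04) and Pex16 (-0.35 ± 0.05). Pex13 (-0.24), Pex26 (-0.23), Pex2 (-0.19) and Pex14 (-0.14) did not pass with total counts alone (-0.10, -0.09, -0.05 and -0.01). At the other end, Pxmp2 (0.92 ± 0.09), Slc25a17 (0.53 ± 0.04), Acox2 (0.47 ± 0.04), Acaa1b (0.43 ± 0.05), Abcd2 (0.41 ± 0.11) and Ehhadh (0.40 ± 0.04) were higher in treated knock-in than in treated wild type. Ehhadh, the strongest responder, was thus higher in the knock-in by about the same log2 difference with and without the agonist. The lower call of Hsd17b4 (-0.10, adjusted p = 0.0444) was lost in 9 of the 12 fits that left out 1 library, with -0.06 without treated wild-type replicate 3, and turned to 0.03 with total counts alone. Catalase (-0.14) came to 0.00 with total counts alone, and Abcd3 (-0.02, not called) to 0.11. Leaving out treated wild-type replicate 2 took Nudt12 from -0.16 to -0.09, and replicate 3 took Pxmp4 from -0.15 to -0.11 and Pex14 to -0.11, all of which then missed the threshold. Without treated wild-type replicate 1, Agps (0.15) and Acox3 (-0.17) missed it too, at 0.10 and -0.14. Without treated knock-in replicate 3, Acox3 (-0.14) and Pex14 (-0.12) missed it. With total counts alone the lower calls of Nudt12 (-0.02), Acox3 (-0.03), Pxmp4 (-0.02), Eci2 (-0.09) and Gnpat (-0.01) were lost, and Far1 (0.45), Phyh (0.24), Decr2 (0.20), Pecr (0.16), Pex3 (0.16) and Pex6 (0.16) passed as higher.

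**Figure D4:**
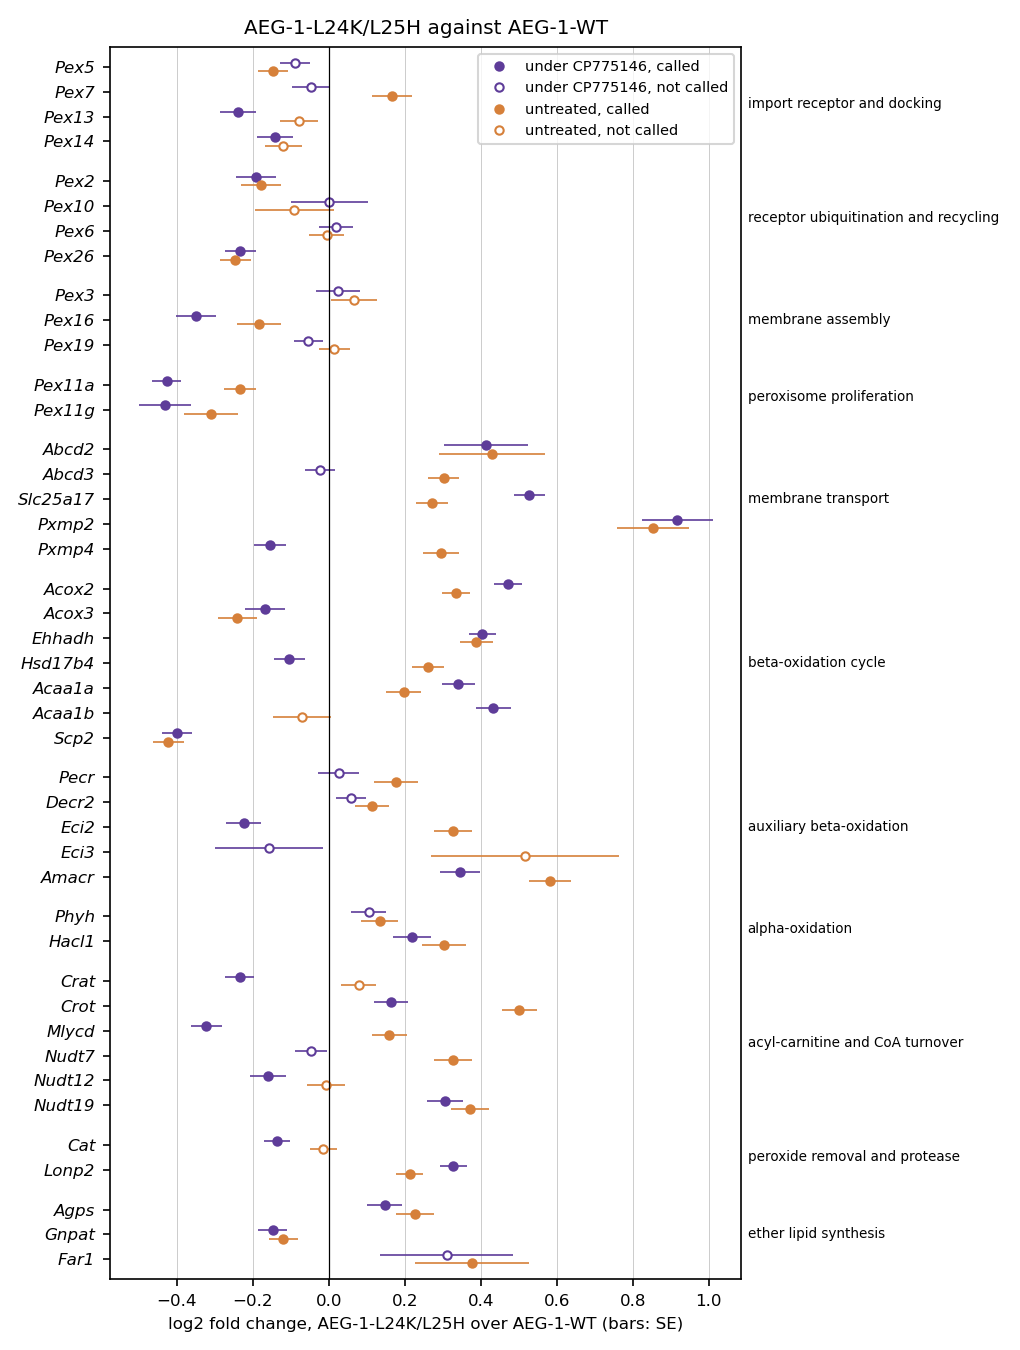
log2 difference of each of the 43 genes between AEG-1-L24K/L25H and AEG-1-WT, with its SE, under CP775146 (purple) and untreated (orange), grouped by role, with TMM scaling; filled points passed the test. Pex11a, Pex11g, Pex16 and Pex26 lie left of 0 at both conditions, and most oxidation enzymes lie right of 0 untreated. Eci2, Hsd17b4, Mlycd and Pxmp4 change side and passed at both conditions. Others, such as Crat, Nudt7, Abcd3, Pex7 and Acaa1b, change side without passing at both. With total counts alone as the scaling all values shift to the right. Among Eci2, Hsd17b4, Mlycd and Pxmp4, only Hsd17b4 then no longer changes side.

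Taking both conditions, 12 members were higher in the knock-in at each, 8 were lower at each, and 4 were higher untreated and lower treated: Pxmp4, Hsd17b4, Eci2 and Mlycd. With total counts alone, only Mlycd of these 4 still passed as lower under the agonist. Across the 43 genes the log2 differences at the 2 conditions, which share no library, had a Pearson r of 0.70 and a Spearman rho of 0.66.

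The response to CP775146 itself differed between genotypes for 11 of the 43 members, tested as the interaction of genotype and agonist. It was smaller in the knock-in for 9 and larger for 2. Of all genes tested, 4.33% had a called negative difference (knock-in response minus wild-type response) and 2.78% a called positive one. These shares include genes that fell, for which a negative difference can be a stronger fall in the knock-in. Over all 43 members the median of this difference was -0.07, against -0.01 over all genes tested, and the estimate was below 0 in 30 members. By class, the smaller responses were in 4 of 6 enzymes of acyl-carnitine and CoA turnover, 2 of 14 oxidation enzymes, 2 of 5 transporters and membrane proteins and 1 of 13 peroxins.

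The largest differences among those called were in Eci2 (log2 -0.55 ± 0.07, adjusted p = 4.51e-06), Mlycd (-0.48 ± 0.06, adjusted p = 3.66e-06) and Pxmp4 (-0.45 ± 0.06, adjusted p = 1.86e-05). Put as folds, Eci2 rose 4.25-fold in the knock-in and 6.22-fold in wild type, Mlycd 2.17-fold and 3.03-fold, and Pxmp4 2.41-fold and 3.29-fold. The next were Nudt7 (-0.37), Hsd17b4 (-0.37), Crot (-0.34), Abcd3 (-0.33) and Crat (-0.31). Pex11a had the smallest called difference (-0.19 ± 0.06, adjusted p = 0.033). Its call was lost in 6 of the 12 fits that left out 1 library, with values of -0.14 to -0.20, the lowest in size without treated wild-type replicate 3, and with total counts alone (-0.16). The estimate of Eci3 was larger in size and did not pass (-0.67 ± 0.28, adjusted p = 0.17), and the larger response of Acox2 in the knock-in passed with total counts alone (0.17).

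The 2 larger responses in the knock-in were those of Acaa1b (log2 0.50 ± 0.09, adjusted p = 0.000437) and Slc25a17 (0.26 ± 0.06, adjusted p = 0.00437). Acaa1b rose 26.6-fold in the knock-in and 18.8-fold in wild type, and Slc25a17 1.22-fold and 1.02-fold. For Ehhadh the difference was 0.02 ± 0.06, and for Pex19 -0.07 ± 0.06, neither of which passed. Since each difference uses the untreated libraries of both genotypes, it is not independent of the untreated comparison, and the levels at all 4 groups are best read side by side.

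**Figure D5:**
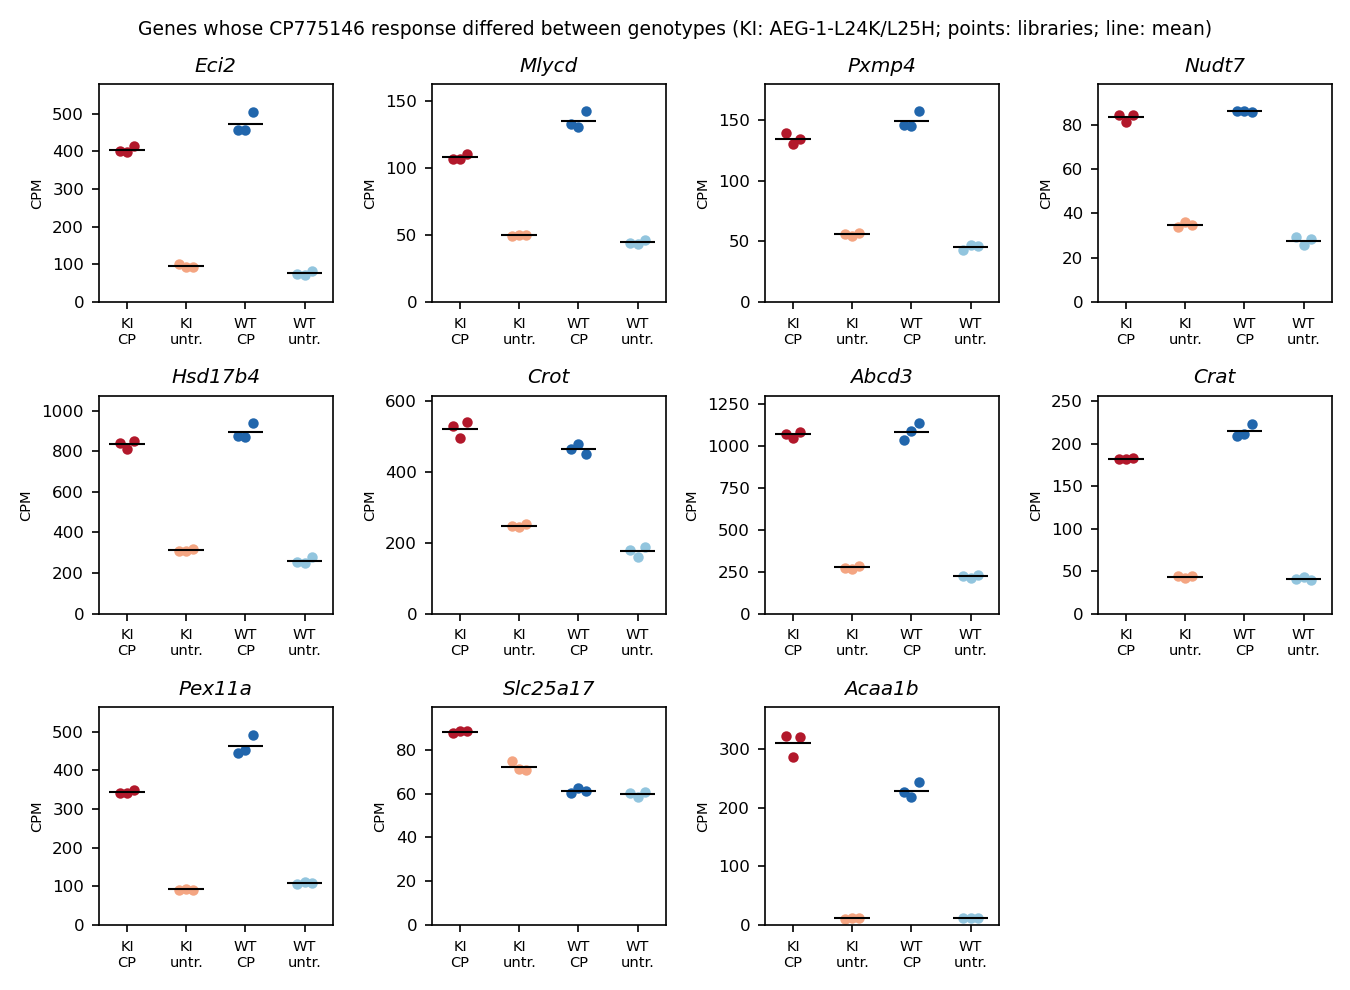
CPM of the 11 members whose response to CP775146 differed between genotypes, ordered from the most negative difference (Eci2, -0.55) to the most positive (Acaa1b, 0.50), with 1 point per library, a line at the mean and the axis from 0 (KI, AEG-1-L24K/L25H; CP, CP775146). In Eci2, Mlycd, Pxmp4, Nudt7 and Hsd17b4 the treated knock-in libraries lie below the treated wild-type ones and the untreated knock-in libraries above the untreated wild-type ones, an order that under the agonist holds only for Eci2 and Mlycd with total counts alone; only Acaa1b, Slc25a17 and Crot have their highest libraries in the treated knock-in.

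Another 37 peroxisomal genes, taken as a list of their own, give the setting for these members. Of them 33 were tested, and 18 rose and 1 fell in the knock-in, while 22 rose and 3 fell in wild type, with median log2 fold changes of 0.18 and 0.19. Over all genes tested, 18.1% rose and 19.1% fell in the knock-in, and 22.7% rose and 22.3% fell in wild type. The strongest rises were in the group listed as acyl-CoA entry, thioesterase and conjugation. Acot3, a thioesterase, measured 76.2 ± 4.18 CPM in treated and 1.81 ± 0.214 CPM in untreated knock-in, and 68.9 ± 5.72 CPM in treated and 0.967 ± 0.0794 CPM in untreated wild type (log2 5.40 ± 0.09 and 6.15 ± 0.10). Ech1, a dienoyl-CoA isomerase, rose by log2 2.06 in the knock-in and 2.76 in wild type, and the acyl-CoA synthetase Slc27a2 by 2.29 and 2.52. In redox and detoxification, the epoxide hydrolase Ephx2 rose by 1.58 and 1.99, Dhrs4 by 1.47 and 1.88, and Idh1 by 0.80 and 0.998.

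The oxidases of other substrates moved in both directions. Pipox, which oxidises pipecolic acid and sarcosine, fell to 82.3 ± 1.6 CPM in treated knock-in, against 139 ± 2.48 CPM in untreated knock-in (log2 -0.75 ± 0.04), and to 70.9 ± 1.86 CPM in treated wild type, against 165 ± 6.22 CPM in untreated wild type (-1.22 ± 0.04). Uox, urate oxidase, rose by log2 0.27 in the knock-in and 0.63 in wild type, and the glycolate oxidase Hao1 had -0.17, which did not pass, and -0.36, a fall. In division, Dnm1l, the dynamin that cuts the membrane, rose by 0.18 and 0.13, and Fis1 and Mff did not pass in either genotype. Of the remaining membrane and matrix genes, Hsdl2 rose by 2.01 and 2.50, Tmem135 by 0.55 and 0.72, and the processing protease Tysnd1 by 0.39 and 0.43.

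Mitochondrial beta-oxidation is the parallel pathway. All 17 listed genes rose in both genotypes, with medians of log2 1.20 in the knock-in and 1.81 in wild type, where 18.1% and 22.7% of all genes tested rose. The response was smaller in the knock-in for 14 of these 17 genes, with a median difference of -0.43. Of all genes tested, rising or falling, 4.33% had a called negative difference. The receptor gene Ppara measured 93.8 ± 3.57 CPM in treated and 73.3 ± 2.32 CPM in untreated knock-in, and 127 ± 8.33 CPM in treated and 87.6 ± 1.17 CPM in untreated wild type (SD, n = 3). It was lower in the knock-in at both conditions (log2 -0.44 ± 0.04 treated and -0.26 ± 0.05 untreated) and rose with the agonist in both genotypes, with a difference in response of -0.18 ± 0.06 that did not pass (adjusted p = 0.09).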

How the data were processed

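The authors deposited raw counts, a file for each library. Per the file headers, featureCounts 1.6.2 assigned Subread alignments to exons and added them up for each gene, with neither a strand nor a multi-mapping option; the reads had been aligned to mm10, and the annotation was a filtered Ensembl GRCm38 release 83. The submitters' processing notes name featureCounts 1.4.6-p4 instead, with FastQC 0.11.2, cutadapt 1.9 and edgeR 3.18.1. By default such counting drops reads that fall in overlapping genes, and paralogs can lose shared reads. No normalization preceded deposit.

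Of the 46983 gene IDs, 46488 were matched to a symbol. Genes were kept by filterByExpr (minimum count 10, minimum total 15; 15664 kept), scaled by TMM and fitted in edgeR 4.0.16 (R 4.3.3; glmQLFit robust, glmQLFTest) with 1 term per group over 12 libraries. P-values were adjusted by Benjamini-Hochberg over all genes kept, and 0.05 was the threshold. The SE of a log2 fold change is its size divided by the square root of the F statistic. CPM and RPKM use TMM-scaled library sizes and, for RPKM, the deposited gene lengths; summed levels, medians and counts over lists are descriptions without a test. Python 3.11.15 and pandas 2.3.3 were used for summaries.

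The members and lists were chosen with earlier results of these data known. Every member is described. Values per library are given for the strongest responder of each role, those that fell, those called in the interaction and the paralog pairs, and up to 3 genes of each group of other peroxisomal genes are named by smallest adjusted p. Some genes of these groups are not reported here. Promoters come from RefSeq (GRCm38.p6), and shared 50-base stretches from GENCODE M21 transcripts. Targeting signals in the proteins were not analysed here.

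Replicates of a group differed by more than sampling noise (chi-square per gene 1.70 to 6.79), and each library was counted once. Such spread can also arise between preparations from a single animal, so it does not tell whether replicates were separate animals. Whether replicate numbers pair libraries is not known. Deviations of same-numbered libraries from their group means correlated at -0.03 to 0.06 over 18 pairs, none above 0.1. Those of other pairs between groups correlated at -0.07 to 0.07. Such correlations cannot show whether same-numbered libraries shared an animal or a batch, and the main fit used no pairing. In data simulated with 50 changed genes per fold among the 15405 to 15434 genes kept, 1.25-, 1.5-, 2- and 3-fold changes were recovered in 50, 68, 80 and 86% for CP775146 in the knock-in and in 28, 54, 72 and 76% for the interaction, with 11 and 10 unchanged genes called. Alternatives were RLE size factors, total counts alone, all genes kept, at least 5 CPM in 3 libraries, DESeq2 1.42.0, limma 3.58.1 (voom with sample weights), a replicate block, only the groups compared, and leaving out each library.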

Additional observations from a re-analysis of the deposited data

Results flagged for a closer look

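The response to CP775146 differed between genotypes, by the interaction term of the edgeR fit, for 11 members, listed here as the log2 response in AEG-1-L24K/L25H minus that in AEG-1-WT with the adjusted p. The smaller responses were those of Eci2 (-0.55, adjusted p = 4.51e-06), Mlycd (-0.48, 3.66e-06), Pxmp4 (-0.45, 1.86e-05), Nudt7 (-0.37, 0.000416), Hsd17b4 (-0.37, 0.000121), Crot (-0.34, 0.00126), Abcd3 (-0.33, 0.000318), Crat (-0.31, 0.00103) and Pex11a (-0.19, 0.033). The larger responses were those of Acaa1b (0.50, 0.000437) and Slc25a17 (0.26, 0.00437). Among all genes tested, rising or falling, 4.33% had a called negative difference of this kind and 2.78% a called positive one. The coefficient of biological variation, part of which may be technical, was 2.63 and 2.59% in treated and untreated knock-in. It was 5.33 and 5.10% in treated and untreated wild type. The summed marker levels of several cell types also differed between genotypes. The part of either in these differences was not tested.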

How the results depend on the processing

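The counts of members called, and of peroxins and oxidation enzymes called, stayed within 1.5 times the reported ones in all 5 comparisons under every alternative run. These counts add higher and lower calls, so a change of direction does not show in them. The balance of knock-in against wild type under the agonist did change direction with total counts alone, as given above. Leaving out 1 library gave 33 to 35 members called for CP775146 in the knock-in (34 reported), 34 to 36 in wild type (36), 26 to 33 for untreated knock-in against wild type (32), 27 to 31 under the agonist (30) and 10 to 12 for the interaction (11). For peroxins and oxidation enzymes together the ranges were 19 to 20, 21 to 22, 15 to 20, 14 to 18 and 3 to 5. With the replicate block, 34, 36, 31, 30 and 11 members were called, the one lost call being Decr2 in untreated cells (0.11). Of the 12 libraries, 6 correlated best with their own number, which does not settle whether the numbers pair libraries. Total counts alone put the median of all genes at -0.07 (CP775146 in the knock-in), -0.10 (in wild type), 0.10 and 0.12 (knock-in against wild type, untreated and treated) and 0.03 (interaction), and the share of higher among all called genes to 32.2, 30.6, 74.5, 76.1 and 56.1%, from 48.7, 50.4, 49.7, 48.3 and 39.1%. Values called under either scaling that turned sign were Cat untreated (0.0873) and Abcd3 (0.1145), Hsd17b4 (0.0341) and Cat (0.0016) treated, all knock-in against wild type; another 22 values called under neither also turned sign. The scaling factor itself makes this shift. A miss of the threshold at 3 libraries a group does not show that a value did not differ.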
